A study of Danio rerio with 2 samples.

Results

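Accessible regions that formed a single unbroken call in 1 melanoma line and 2 or more separate calls in the other were collected from the ATAC-seq lists of 2 zebrafish melanoma lines, zcrest 1 and zcrest 2. A region was a member when it overlapped, by at least 1 bp each, 2 or more regions of the other line on chromosomes 1 to 25. It is called the continuous region here, the regions it overlaps are its partners, and the stretch between neighbouring partners is the gap. In zcrest 1, 641 regions were continuous over 1287 partners in zcrest 2. In zcrest 2, 796 regions were continuous over 1608 partners in zcrest 1. Together these were 4240 of 116461 regions, 2203 of the 63332 of zcrest 1 and 2037 of the 53129 of zcrest 2. Members were chosen by the called starts and ends alone, and every measure below comes from the same calls, so all values are descriptions and none is tested.

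In ATAC-seq a transposase cuts and tags DNA wherever chromatin leaves it exposed, and reads pile up over promoters, enhancers and other regulatory DNA. DNA wrapped around nucleosomes is largely protected, so an open element often appears as neighbouring patches of reads with a dip between them. A peak caller joins patches that stay above its threshold, or that are closer than its joining distance, and reports the highest point as the summit.

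Both lines came from zebrafish melanomas, were kept for more than 20 passages and share the listed genotype: alterations of p53 and BRAF, an abbreviation Na that the labels do not expand, the transgene crestin:EGFP and MiniCoopR alone. p53 is a tumour suppressor and BRAF a growth-signalling kinase mutated in many melanomas. The crestin reporter lights up neural crest cells, from which pigment cells descend, and MiniCoopR carries mitfa, a gene needed for melanocytes. Each line gave 1 library of 50000 cells, grown to 80% confluence, so there are no replicates, and each comparison is of these 2 libraries. The labels name no separate cultures or subclones, and the cell type could not be checked against marker genes, since positions are given in Zv9 and genes of Zv9 were not used here.

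A read number here is the number of overlapping reads at a summit, worked out from the authors' fold enrichment and p-value. Over the whole lists its median was 18 in zcrest 1 and 19 in zcrest 2. The lowest background at any summit, taken as the genome-wide one, was 1.57 reads for zcrest 1 and 2.01 reads for zcrest 2. The weakest summits had 7 reads in zcrest 1 and 8 in zcrest 2. No 2 neighbouring regions lay closer than 101 bp in the list of zcrest 1 or 97 bp in that of zcrest 2, so no shorter gap was there to be counted.

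Continuous regions were a small share of the regions that both lines had. They were 1.85% of the 34658 zcrest 1 regions that overlapped any region of zcrest 2 (95% exact binomial interval 1.71% to 2.00%, counting error only, as for all intervals here). They were 2.31% of the 34492 zcrest 2 regions that overlapped any region of zcrest 1 (2.15% to 2.47%). Nearly all had 2 partners: 636 in zcrest 1 and 780 in zcrest 2. The remaining 5 and 16 had 3 partners, and none had more. The larger number in zcrest 2 was not seen with lists of equal length. With the zcrest 1 list reduced to its 53129 regions of highest -log10 q, 628 zcrest 1 regions and 603 zcrest 2 regions were continuous. That reduction removed the weakest possible zcrest 1 partners too, so list length and partner strength cannot be told apart. With a -log10 q of at least 10 in both lists, 86 zcrest 1 regions and 149 zcrest 2 regions were continuous.

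Continuous regions were wide. Their median width was 833 bp in zcrest 1, from 265 to 4268 bp, and the zcrest 1 regions matched to a single zcrest 2 region one to one had a median of 471 bp (32455 pairs). In zcrest 2 the median was 873 bp, from 200 to 2069 bp, and 458 bp in the one-to-one pairs. The share of continuous regions was higher in each wider class. Among overlapping zcrest 1 regions of 200 to 399 bp it was 0.144%, and among those of 1000 bp or more it was 16.3% (14.2% to 18.6%, 185 of 1136). In zcrest 2 the same classes gave 0.210% and 20.2% (18.0% to 22.4%, 271 of 1344). A wide region has more room for several partners, and its width is part of what the overlap rule acts on.

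The gaps were short. The 646 gaps that zcrest 2 showed inside continuous zcrest 1 regions had a median of 144 bp (interval 138 to 150 bp) and ran from 97 to 1005 bp. The 812 gaps that zcrest 1 showed inside continuous zcrest 2 regions had a median of 147 bp (141 to 150 bp) and ran from 101 to 742 bp. Under 200 bp lay 81.4% of the gaps inside zcrest 1 regions (78.2% to 84.4%) and 77.1% of those inside zcrest 2 regions (74.0% to 79.9%). Of all 4978 neighbouring zcrest 2 pairs up to 1000 bp apart, 562 had gaps under 120 bp, 748 of 120 to 149 bp and 772 of 150 to 199 bp. Of all 5687 such zcrest 1 pairs, these classes held 562, 822 and 871. A continuous region must be wider than the gap it spans, so the rule itself favours short gaps. At the upper end, 90% of the gaps were no longer than 246.5 bp inside zcrest 1 regions and 261.9 bp inside zcrest 2 regions. The numbers per 10 bp were highest close to the smallest gap of each list. In zcrest 2 the fullest bin held 86 gaps, at 100 to 109 bp, and the 3 bins from 150 to 179 bp held 48, 46 and 45, with 25 in the next. Over all neighbouring zcrest 2 regions the same bins held 254, then 192, 185 and 169, with 123 in the next. Their fullest bin held 276, at 120 to 129 bp. A step at this length was thus also seen over all neighbouring regions, though smaller in proportion. In zcrest 1 the fullest bin held 112 gaps, at 110 to 119 bp, and the bin from 150 to 159 bp held 72, with 35 in the next, where all neighbouring zcrest 1 regions gave 314, then 252 and 173.

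**Figure D1:**
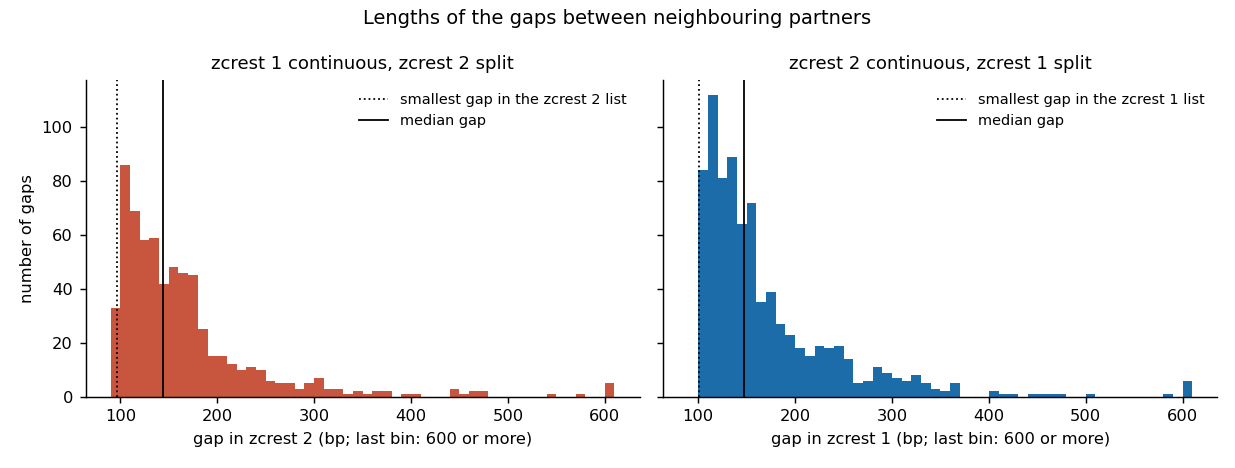
Histograms of gap length in bp (bins of 10 bp, the last holding all gaps of 600 bp or more) for zcrest 1 continuous regions, left, and zcrest 2 continuous regions, right. The dotted line is the smallest gap in the split line's whole list, 97 and 101 bp, and the solid line the median, 144 and 147 bp, and the bars are tallest within about 50 bp of the dotted line.

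Most close neighbours of one line were not bridged in the other. Of 4978 neighbouring pairs of zcrest 2 regions up to 1000 bp apart, 13.0% lay in 1 continuous zcrest 1 region (12.0% to 13.9%), 40.4% overlapped separate zcrest 1 regions, 33.1% had a counterpart for only 1 of the pair and 13.6% for neither. Of 5687 such pairs of zcrest 1 regions, 14.3% lay in 1 continuous zcrest 2 region (13.4% to 15.2%), 35.3% overlapped separate zcrest 2 regions, 29.2% had 1 counterpart and 21.2% had none. The share inside a continuous region depended on the gap. For gaps under 120 bp it was 33.5% in zcrest 1 (29.6% to 37.5%) and 34.9% in zcrest 2 (30.9% to 39.0%). For gaps of 200 to 299 bp it was 10.4% in zcrest 1 and 15.0% in zcrest 2, and from 300 to 599 bp 2.64% and 3.12%. A region must be wider than a gap to span it, and the whole lists had median widths of 397 bp in zcrest 1 and 387 bp in zcrest 2. The lower shares at long gaps are thus partly set by the overlap rule. Even the shortest gaps were kept as separate calls in both lines in a sizeable share of cases. This share was 28.5% for zcrest 2 neighbours and 20.6% for zcrest 1 neighbours, below the shares of 33.5% and 34.9% inside a continuous region. Pairs with a counterpart for only 1 neighbour or for neither could not lie in a continuous region, and all these shares include them in the total.

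**Figure D2:**
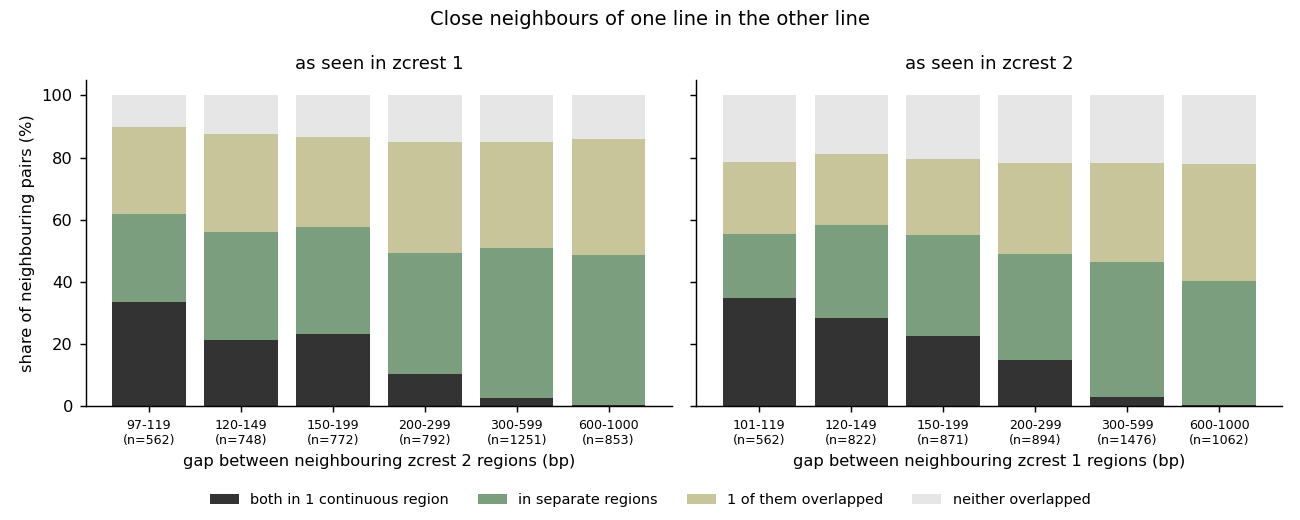
Shares (%) of neighbouring region pairs of one line by what the other line had there, in classes of gap length in bp with the number of pairs below each bar; left, zcrest 2 neighbours seen in zcrest 1, right, zcrest 1 neighbours seen in zcrest 2. The dark segment, both neighbours in 1 continuous region, is 33.5% and 34.9% in the class of shortest gaps and 0.469% and 0.565% in the longest.

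The continuous call mostly reached across at least 2 partner summits, though often not to the partners' outer ends. It covered the summits of at least 2 partners in 513 of 641 zcrest 1 regions (80.0%, 76.7% to 83.1%) and in 631 of 796 zcrest 2 regions (79.3%, 76.3% to 82.0%). In the other 128 and 165 it reached only the flank of a partner, with a median smallest overlap of 52 bp and 55 bp against 223 bp and 228 bp where at least 2 summits were covered. The outer edges of the continuous region and of its partners lay at a median of 48 bp from each other for zcrest 1 regions and 44 bp for zcrest 2 regions, and 48 bp separated the edges of one-to-one pairs. The continuous region was longer than the whole span of its partners in 42.1% of zcrest 1 regions and 43.1% of zcrest 2 regions. The span from the first partner's start to the last partner's end had a median of 881 bp in zcrest 2, beside 833 bp for the continuous zcrest 1 region, and of 909.5 bp in zcrest 1, beside 873 bp for the continuous zcrest 2 region. The partners' own widths, without the gaps, summed to a median of 723 bp in zcrest 2 and 741 bp in zcrest 1. Single partners had median widths of 321 bp in zcrest 2 and 337 bp in zcrest 1, and 5.91% and 6.34% of them stood at the smallest width in the lists, 200 bp.

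Regions near the limit of the overlap rule were few. The smallest overlap was 10 bp or less in 7 continuous zcrest 1 regions, with 13 to 60 reads and widths of 265 to 1013 bp. In 9 further zcrest 1 regions, with 11 to 36 reads and widths of 205 to 864 bp, a second zcrest 2 region lay within 10 bp of the edge without overlap. In zcrest 2 there were 17 regions just inside, with 10 to 106 reads and widths of 200 to 1014 bp, and 8 just outside, with 12 to 70 reads and widths of 200 to 890 bp.

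The summit of the continuous region mostly fell in its strongest partner. Any partner tied for the most reads counted as strongest, and distances were taken to the nearest summit among tied partners. The number of ties is not given here. The summit lay in a strongest partner in 499 zcrest 1 regions (77.8%, 74.4% to 81.0%) and in 617 zcrest 2 regions (77.5%, 74.5% to 80.4%). It fell in a weaker partner in 120 and 145 regions (18.7% and 18.2%), in a gap in 16 and 30 (2.50% and 3.77%) and beyond the partners in 6 and 4. The nearest partner summit lay at a median of 22 bp for zcrest 1 regions and 26 bp for zcrest 2 regions, where the summits of one-to-one pairs were 31 bp apart. A continuous region has several partner summits to be near to, so this distance is the smallest of at least 2. To the strongest partner's summit the median was 34 bp and 37 bp, but 26.1% of zcrest 1 regions (22.7% to 29.6%) and 26.8% of zcrest 2 regions (23.7% to 30.0%) had it more than 200 bp away. Among one-to-one pairs 8.88% were that far apart. The pairs had smaller median widths, 471 bp in zcrest 1 and 458 bp in zcrest 2, and so less room for distant summits.

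Where the summit lay in a weaker partner, the partners were mostly close in strength. The weakest partner there had a median of 0.85 times the reads of the strongest in zcrest 2 and 0.80 times in zcrest 1. The lowest values were 0.25 and 0.268. Where the summit lay in the strongest partner, the medians were 0.643 and 0.60. Where it lay in a gap, they were 0.818 (n = 16) and 0.838 (n = 30), so such closeness was not particular to summits in a weaker partner. Neighbouring partner summits were a median of 503 bp apart in zcrest 2 and 515.5 bp in zcrest 1. The lists give 1 summit per region, so whether the continuous line also had a second maximum was not analysed here.

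By -log10 q, the strongest continuous region of zcrest 1 was on chromosome 19 at 14852030 to 14853022. It was 993 bp wide, with 117 reads and an 11.97-fold enrichment. zcrest 2 had 2 regions there, at 14852114 to 14852474 with 29 reads and at 14852591 to 14853015 with 72 reads, 116 bp apart. The zcrest 1 summit lay 5 bp from the stronger zcrest 2 summit and 479 bp from the weaker. The same arrangement, a strong patch and a weaker flanking one, was seen in the next 4. On chromosome 24 at 9681752 to 9683059 zcrest 1 had 129 reads, against 84 and 41 in zcrest 2 across a gap of 118 bp. On chromosome 24 at 41344230 to 41345424 zcrest 1 had 109 reads, against 37 and 101 in zcrest 2 across 127 bp. On chromosome 2 at 58849993 to 58850906 zcrest 1 had 100 reads, against 71 and 30 in zcrest 2 across 116 bp. On chromosome 19 at 20588353 to 20589408 zcrest 1 had 106 reads, against 78 and 33 in zcrest 2 across 123 bp. In all 5 the zcrest 1 summit lay in the strongest partner, within 60 bp of its summit, and every gap was under 130 bp.

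By -log10 q, the strongest continuous region of zcrest 2 was on chromosome 7 at 54477701 to 54479497. It was 1797 bp wide, with 282 reads on a background of 57.2 reads. zcrest 1 had 155 reads at 54477715 to 54478917 and 183 reads at 54479050 to 54479501, 132 bp apart. It stood in a crowded stretch, with 7 further zcrest 2 regions within 10 kb of the summit, and its enrichment was only 4.87-fold. The other 4 stood on backgrounds of 7.88 to 12.3 reads. On chromosome 15 at 9609602 to 9611084 zcrest 2 had 138 reads, against 105 and 94 in zcrest 1 across 112 bp. On chromosome 18 at 6116908 to 6117674 zcrest 2 had 114 reads, against 16 and 75 in zcrest 1 across 102 bp. On chromosome 10 at 22910593 to 22911336 zcrest 2 had 110 reads, against 28 and 85 in zcrest 1 across 157 bp. On chromosome 13 at 39523974 to 39525376 zcrest 2 had 124 reads, against 66 and 68 in zcrest 1 across 200 bp. There the zcrest 2 summit fell in the partner with 66 reads, 122 bp from its summit and 870 bp from that of the other.

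**Figure D3:**
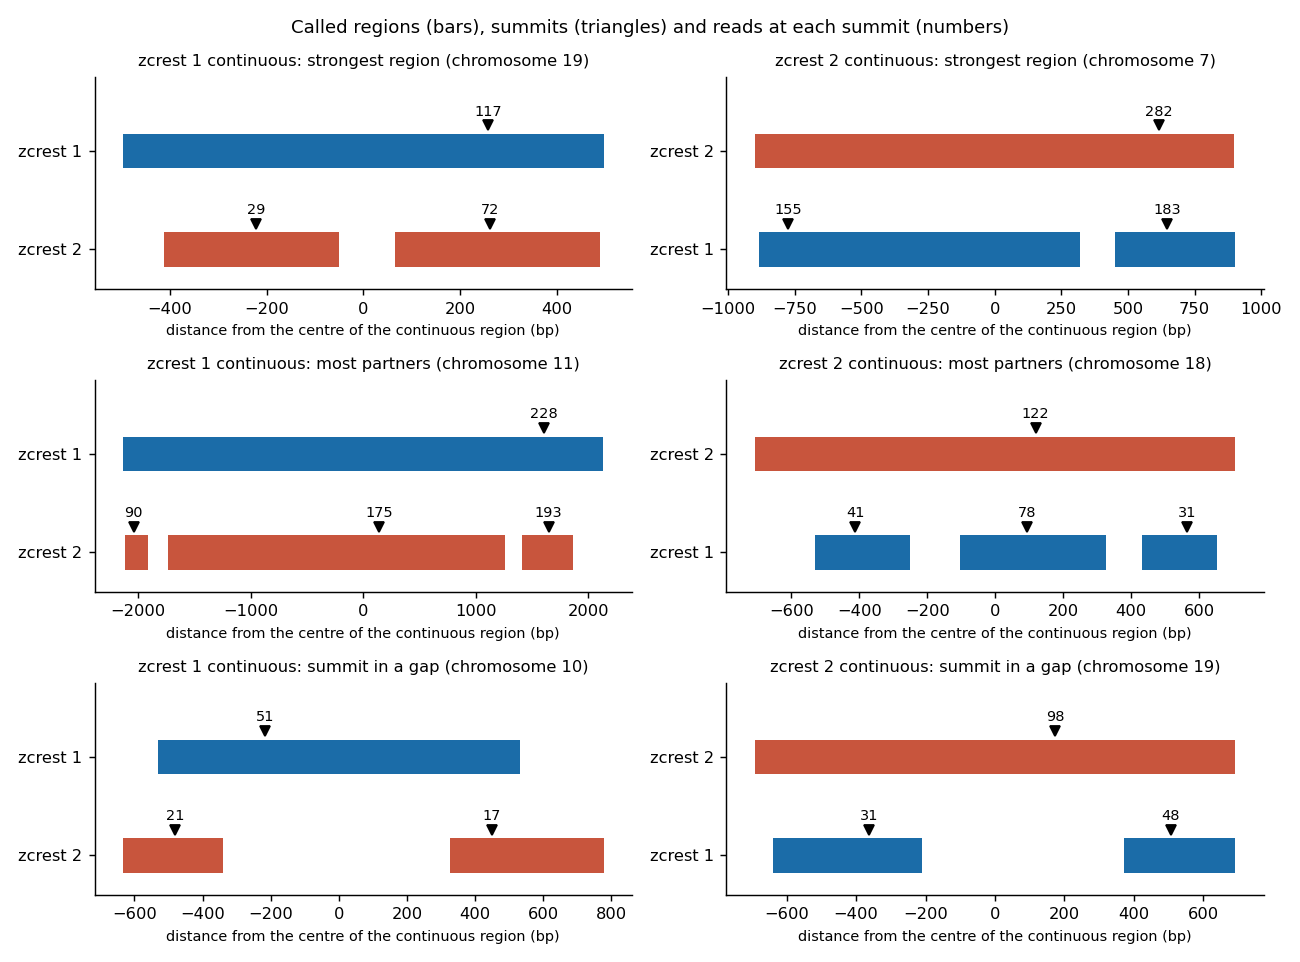
Called regions of both lines as bars, with summits as triangles and the reads at each summit as numbers, plotted by distance in bp from the centre of the continuous region (upper bar); left, zcrest 1 continuous, right, zcrest 2 continuous. From top to bottom are the regions of highest -log10 q among all continuous regions, among those with 3 partners and among those with the summit in a gap. In the last, 51 reads in zcrest 1 and 98 in zcrest 2 stand over a gap of the other line.

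The regions with 3 partners ranged from very strong to weak. The widest continuous region of all was in zcrest 1 on chromosome 11 at 18064628 to 18068895, 4268 bp wide with 228 reads. zcrest 2 split it into regions of 90, 175 and 193 reads with gaps of 178 and 157 bp. The background was 59.9 reads in zcrest 1, so the enrichment was 3.76-fold, and a call at the strongest partner's background in zcrest 2 needed 71 reads. The other 4 of zcrest 1 had 14 to 45 reads. On chromosome 5 at 66504687 to 66505746 zcrest 1 had 30 reads, fewer than the strongest of the 3 zcrest 2 regions, which had 50, 18 and 19. On chromosome 19 at 30373395 to 30374403 zcrest 1 had 45 reads, against 12, 16 and 25 in zcrest 2. Chromosome 8 at 16927121 to 16928170 had 23 reads in zcrest 1, against 24, 16 and 14 in zcrest 2, and chromosome 1 at 628636 to 629439 had 14 in zcrest 1, against 18, 16 and 18 in zcrest 2. In 3 of these 5 the unscaled read number was higher at the strongest zcrest 2 partner.

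In zcrest 2 the region with 3 partners and the highest -log10 q was on chromosome 18 at 25900607 to 25902020. It had 122 reads, against 41, 78 and 31 in zcrest 1, with gaps of 148 and 106 bp. Its summit lay 26 bp from that of the middle partner. On chromosome 19 at 25911383 to 25913230 zcrest 2 had 87 reads, against 83, 72 and 88 in zcrest 1, so 3 patches of nearly equal strength lay under 1 call of 1848 bp. On chromosome 8 at 49050039 to 49051405 zcrest 2 had 60 reads, against 21, 41 and 21 in zcrest 1. On chromosome 25 at 27338469 to 27340200 zcrest 2 had 63 reads, against 77, 22 and 55 in zcrest 1. On chromosome 24 at 37528544 to 37529583 zcrest 2 had 58 reads, against 32, 34 and 27 in zcrest 1. The 8 inner gaps of these last 4 ran from 105 to 182 bp.

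A summit over a gap marks a place where the continuous line was highest and the other line had no call. The region of this kind with the highest -log10 q in zcrest 1, on chromosome 10 at 4983404 to 4984465, had 51 reads at a summit inside a zcrest 2 gap of 667 bp. zcrest 2 had 21 and 17 reads on either side, and a call needed 8 reads at the background of the stronger side. The next by -log10 q, on chromosome 6 at 45469645 to 45470854, had more reads and weaker flanks, with 62 reads in zcrest 1 over a zcrest 2 gap of 289 bp, against 16 and 14 reads in zcrest 2 on either side and 10 needed for a call. In zcrest 2 the highest -log10 q was on chromosome 19 at 13956086 to 13957467, with 98 reads over a zcrest 1 gap of 582 bp, flanked by 31 and 48 reads in zcrest 1 where 11 were needed. On chromosome 25 at 3924760 to 3925567 zcrest 2 had 30 reads over a zcrest 1 gap of 200 bp, with 13 and 12 reads beside it and 8 needed. Chromosome 5 at 64618640 to 64619314 and chromosome 22 at 7697287 to 7698119 had 37 and 29 reads in zcrest 2 over zcrest 1 gaps of 153 and 234 bp, with partners of 21 and 11 and of 13 and 10 reads. The number needed rests on the background at the partner's summit and can differ inside the gap.

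At other summits over gaps the read number exceeded that of the strongest partner by less, or not at all. On chromosome 11 at 24168107 to 24169386 zcrest 1 had 114 reads over a zcrest 2 gap of 471 bp, but the background was 38.2 reads in zcrest 1 and 64 reads were needed for a call in zcrest 2, which had 99 and 121 on either side. Near the start of chromosome 18, at 49681 to 51234, zcrest 1 had 95 reads over a zcrest 2 gap of 955 bp with 60 needed, between regions of 101 and 116 reads. On chromosome 3 at 39779751 to 39780189 zcrest 1 had 19 reads over a zcrest 2 gap of 252 bp, against 19 and 12 reads in zcrest 2. On chromosome 1 at 41879014 to 41879958 zcrest 2 had 29 reads over a zcrest 1 gap of 447 bp, against 23 and 19 reads in zcrest 1, where 13 were needed. Over all regions with the summit in a gap, the median read number was 17 in zcrest 1 (n = 16) and 15 in zcrest 2 (n = 30), and the median width 582 bp and 403 bp, both below the medians of all continuous regions.

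The longest gap was on chromosome 20, inside the zcrest 1 region at 15558202 to 15560086, 1885 bp wide with 134 reads. zcrest 2 had 55 reads at the near end, 6 bp from the zcrest 1 summit, and 20 reads at the far end, with 1005 bp without a call between them. A call needed 17 reads at the background of the stronger partner. The other long gaps in zcrest 2 were 955 bp and 667 bp at the chromosome 18 and chromosome 10 regions above, 754 bp on chromosome 8 at 205495 to 206614 (22 reads in zcrest 1, against 16 and 10 in zcrest 2) and 633 bp on chromosome 20 at 2983102 to 2984663 (68 reads in zcrest 1, against 45 and 27 in zcrest 2). In zcrest 1 the longest gap was 742 bp, on chromosome 1 inside the zcrest 2 region at 13461139 to 13462628, with 71 reads in zcrest 2, against 38 and 18 in zcrest 1. Gaps of 643 bp followed on chromosome 18 at 20957335 to 20958525 (31 reads in zcrest 2, against 13 and 8 in zcrest 1) and on chromosome 13 at 4524017 to 4525501 (25 reads in zcrest 2, against 15 and 17 in zcrest 1). A gap of 638 bp lay on chromosome 3 at 2064920 to 2066327, where zcrest 2 had 32 reads, against 19 and 49 in zcrest 1, and one of 619 bp on chromosome 15 at 46213386 to 46214787, where zcrest 2 had 60 reads, against 46 and 14 in zcrest 1. In 7 of these 10 regions the continuous summit lay inside a partner, and in the other 3 in the gap.

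Read numbers differed only moderately between the continuous line and the strongest partner. zcrest 1 had a median of 30 reads at its continuous regions, against 27 at the strongest and 17 at the weakest zcrest 2 partner. zcrest 2 had a median of 35 reads, against 28 at the strongest and 16 at the weakest zcrest 1 partner. One-to-one pairs had a median of 24 reads in both lines. To compare the lines, reads were scaled so that the median ratio of the one-to-one pairs was 1. The scaled ratio of the continuous region over its strongest partner then had a median of 1.13 for zcrest 1 regions and 1.18 for zcrest 2 regions, with the central 50% between 0.875 and 1.58 and between 0.895 and 1.52. Fold enrichment had a median of 7.39 in continuous zcrest 1 regions, against 6.25 in the strongest zcrest 2 partner, and of 6.86 in continuous zcrest 2 regions, against 7.31 in the strongest zcrest 1 partner. It was also higher in zcrest 1 over the one-to-one pairs, with a median of 6.99 in zcrest 1 and 5.97 in zcrest 2, so its order here is that of the lines as a whole.

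The scaled read number was higher in the continuous line at 402 of 641 zcrest 1 regions (62.7%, 58.8% to 66.5%), where 49.9% of the one-to-one pairs were higher in zcrest 1. It was higher at 537 of 796 zcrest 2 regions (67.5%, 64.1% to 70.7%), where 49.9% of the pairs were higher in zcrest 2. A ratio of at least 1.5 was reached by 177 zcrest 1 regions (27.6%), where 21.7% of the pairs reached it, and by 212 zcrest 2 regions (26.6%), where 18.4% of the pairs did. A ratio lower by at least 1.5 times was found in 61 zcrest 1 regions (9.52%), where it was found in 18.4% of the pairs, and in 78 zcrest 2 regions (9.80%), where it was found in 21.7%. So at 236 continuous zcrest 1 regions and 258 continuous zcrest 2 regions the strongest partner had the higher scaled read number. That partner's summit can lie outside the continuous region. Where under 2 partner summits were covered, the median ratio was 0.964 in zcrest 1 (n = 128) and 0.944 in zcrest 2 (n = 165). Where at least 2 were covered, it was 1.19 and 1.24. The shares depend on the scaling. By the genome-wide backgrounds, 79.9% of zcrest 1 regions were higher than their strongest partner, where 66.6% of pairs were higher in zcrest 1. Only 47.4% of zcrest 2 regions were, where 33.4% of pairs were higher in zcrest 2. This scaling moved the pairs too, and the continuous regions stayed above the pairs in both directions. The rule used the same calls, so the direction of these shares supports nothing beyond the description.

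**Figure D4:**
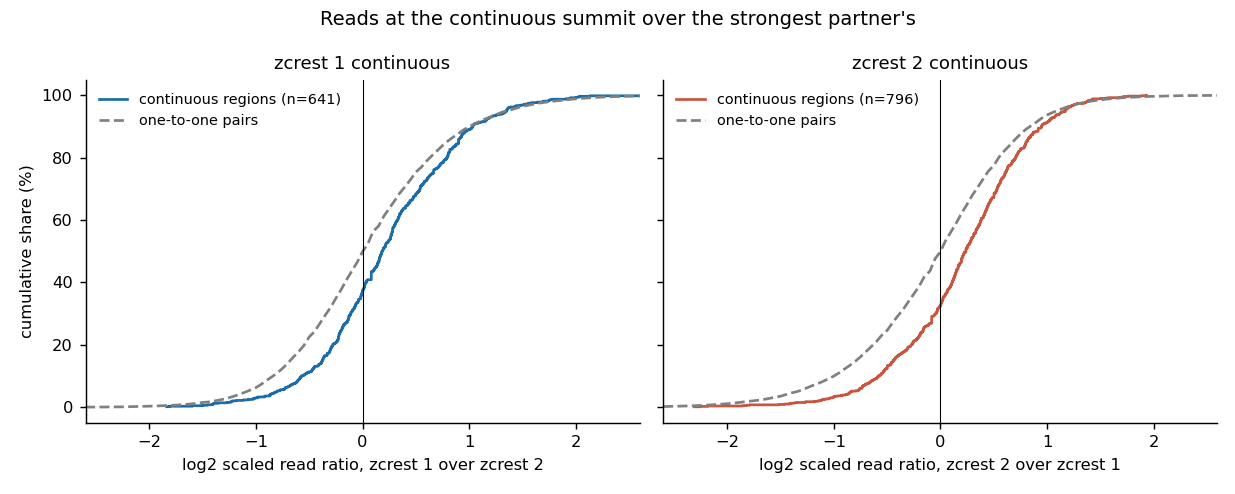
Cumulative share (%) of regions by log2 scaled read ratio, the continuous line over the strongest partner (solid, 641 zcrest 1 regions on the left and 796 zcrest 2 regions on the right) and the same ratio for the 32455 one-to-one pairs (dashed). The solid curves lie to the right of the dashed ones over most of the range and meet them at the upper end, with medians of 1.13 and 1.18 on the linear scale against 1, and cross 0 at about the share of regions with fewer scaled reads than the partner.

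Partners are themselves calls, so they lie at or near the calling threshold or above it by definition. Their margins over it are given without those of one-to-one pairs. At the background of the strongest partner a call needed a median of 10 reads in zcrest 2 and 9 in zcrest 1. The strongest partner had a median of 2.51 times that number in zcrest 2 and 3 times in zcrest 1, and the weakest partner exceeded it by a median of 7 reads in both. At the 10th percentile this excess was 3 reads in zcrest 2 and 2 in zcrest 1. The lowest weakest partner was 1 read below the number needed in zcrest 2 and level with it in zcrest 1. Weakest partners had medians of 17 reads in zcrest 2 and 16 in zcrest 1, below the whole-list medians of 19 and 18. The background itself was higher at these regions than at one-to-one pairs. Its medians were 3.14 reads at continuous zcrest 1 regions, against 2.44 in the pairs, and 4.12 at continuous zcrest 2 regions, against 3.04 in the pairs. Median widths and read numbers were also higher at continuous regions than in the pairs, and their part in the background was not tested. Crowding by further calls was alike: the number of further regions of the same line within 10 kb had a median of 1 at the continuous regions of each line, as it had in the pairs.

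Chromosomes differed in which line was continuous, and the difference ran with their read levels. Chromosome 12 had 4 continuous zcrest 1 regions (0.323% of its overlapping zcrest 1 regions, 0.0880% to 0.824%) and 42 continuous zcrest 2 regions (3.50%, 2.53% to 4.70%). Its one-to-one pairs had a log2 read ratio of zcrest 1 over zcrest 2 of -0.53. Chromosome 18 had 15 in zcrest 1 and 47 in zcrest 2 with a log2 ratio of -0.36, chromosome 1 had 20 in zcrest 1 and 52 in zcrest 2 with -0.29, and chromosome 13 had 22 in zcrest 1 and 51 in zcrest 2 with -0.29. The other way lay chromosome 19, with 46 continuous zcrest 1 regions (2.50%) and 23 continuous zcrest 2 regions (1.23%) and a log2 ratio of 0.47, chromosome 23 with 35 in zcrest 1 and 21 in zcrest 2 and a ratio of 0.47, and chromosome 15 with 20 in zcrest 1 and 10 in zcrest 2 and a ratio of 0.30. Over the 25 chromosomes, 10 had more continuous zcrest 1 regions, 14 more continuous zcrest 2 regions and 1, chromosome 14, 29 of each. Across them the share of continuous regions correlated with the log2 ratio at a Spearman rho of 0.81 in zcrest 1 and -0.74 in zcrest 2 (Pearson r 0.80 and -0.79). These are descriptions over 25 points that share the same 2 libraries and the same calling threshold.

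**Figure D5:**
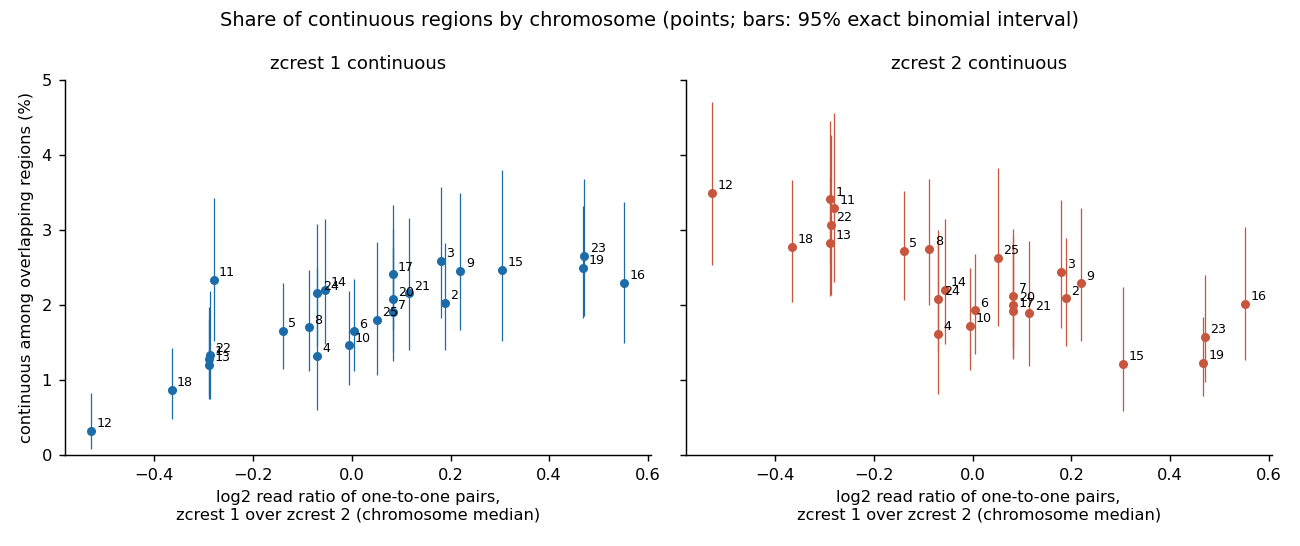
Share (%) of overlapping regions that were continuous on each chromosome, with 95% exact binomial intervals, against the chromosome's median log2 read ratio of one-to-one pairs, zcrest 1 over zcrest 2; left, zcrest 1 continuous, right, zcrest 2 continuous. The points climb to the right in zcrest 1, with chromosome 12 lowest at 0.323%, and descend in zcrest 2, where chromosome 12 is highest at 3.50%.

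Chromosomes 16 and 11 were among those that departed from that order, with overlapping intervals. Chromosome 16 had the highest log2 ratio, 0.55. Its 25 continuous zcrest 1 regions (2.30%, 1.49% to 3.37%) were a lower share than on chromosomes 19 and 23, with 2.50% and 2.66%. Its 22 continuous zcrest 2 regions (2.01%, 1.27% to 3.03%) were a higher share than on chromosomes 19 and 23. The upper bounds there were 1.84% and 2.40%. Chromosome 11, at -0.28, had 35 continuous zcrest 2 regions (3.30%). Its 25 continuous zcrest 1 regions (2.34%, 1.52% to 3.43%) were a higher share than on chromosomes 1, 13 and 22 at similar ratios. The upper bounds there were 1.98%, 1.81% and 2.18%. With each chromosome scaled to its own pairs, the continuous region was higher than its strongest partner in 58.7% of zcrest 1 regions (54.7% to 62.5%) and 63.9% of zcrest 2 regions (60.5% to 67.3%), and the median ratios were 1.08 and 1.11. This scaling sets the median ratio of each chromosome's pairs to 1, and the share of pairs above 1 under it is not given here. The part of depth and of read levels along chromosomes in the counts of continuous regions was not tested further.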

How the data were processed

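ATAC-seq libraries of 2 zebrafish melanoma lines, 1 each, were available as 1 peak list per library. Peaks were called with MACS2 2.1.0 on Zv9, per the submitters' processing notes, and peak names show calling per library. No source used here names an aligner, duplicate handling, a read shift or total reads. Each deposited list gives positions, a score, a fold enrichment ratio, a -log10 p and a -log10 q, all the authors' own. Peaks go down to a -log10 q of 1.31 in the zcrest 1 list and 1.32 in the other. The deposited score is 10 times the -log10 q without decimals in all peaks but 1. The 3 regions of each list outside chromosomes 1 to 25 were not used.

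The deposited fold was taken as (reads + 1)/(background + 1) at the summit and the deposited -log10 p as a Poisson test of the same quantities, which no label states and the values bear out. Both were solved for each peak over whole read numbers up to 800, and all peaks were met within 0.001. In simulated peaks 99.98% of read numbers came back exactly for each line (4953 and 4985 peaks), and 200 of 200 planted splits were found with their gap lengths. The simulated peaks were made with the same formulas. Their backgrounds stayed below those of some named regions, such as 59.9 reads, so recovery at such backgrounds was not simulated. Reads needed for a call are the smallest number reaching the list's lowest -log10 p at a given background. Shares carry exact (Clopper-Pearson) intervals of 95% and medians of gaps order-statistic intervals, both for counting error only. Named regions follow the same rules in each direction: the 5 highest in -log10 q, the 5 with most partners (ties by -log10 q), the 5 highest with the summit in a gap and the 5 with the longest gap. Chromosomes and length bins singled out otherwise were chosen after their values were seen. Members, lists and alternatives were chosen with earlier results of these data known. Python 3.11.15, numpy 2.4.6, pandas 2.3.3 and scipy 1.17.1 were used. No test was run, because each line has 1 library.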

Additional observations from a re-analysis of the deposited data

How the results depend on the processing

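The 5 main values of each direction (number, share, median gap, share of summits inside a partner, share with higher scaled reads) were recomputed under 6 planned settings and 2 added after the data were seen, and 40 of 64 recomputed values stayed within 1.5 times (numbers) or within the interval of the reported value. Values are given for zcrest 1 continuous and then zcrest 2 continuous regions. With a -log10 q of at least 10 in both lists the numbers were 86 and 149 and the shares of overlapping regions 0.552% and 0.961%, with median gaps of 128 and 139 bp, summits inside a partner in 100% and 98.7% and higher scaled reads in 57.0% of the zcrest 1 regions. The interval of the 57.0% ran from 45.8% to 67.6%. The scaling of the whole lists was kept, and the share of one-to-one pairs at this setting is not given. The -log10 q threshold removes weak partners and so acts on the rule itself. With an overlap of at least 50 bp the shares were 1.67% and 2.08%, and summits lay inside a partner in 97.3% of zcrest 2 regions. With lists of equal length the zcrest 2 values were 1.88% and, for summits, 97.2%. Where the continuous region had to cover 2 partner summits (added), the shares were 1.48% and 1.83%, summits inside a partner 97.9% and 97.8%, and higher scaled reads 67.1% and 72.4%. Scaled by the genome-wide backgrounds, 79.9% and 47.4% had higher reads, and scaled within chromosomes (added), 58.7% and 63.9%. The cause of these shifts was not tested. Leaving out chains of overlap moved none of the 5 values beyond these limits in either direction. Joining partners under 100 bp apart moved none of them for zcrest 1 continuous regions. For zcrest 2 continuous regions this joining could change nothing, because no 2 zcrest 1 regions lay closer than 101 bp. Those 5 unchanged values are counted among the 40 and say nothing about stability. No paired analysis was possible because each line has 1 library. Depth limits what a gap shows: a call needed a median of 10 reads in zcrest 2 and 9 in zcrest 1 at the partners' backgrounds, so a gap is not shown to be closed chromatin.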

Other observations

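Some calls interlocked: 46 zcrest 1 regions were continuous over zcrest 2 regions and at the same time partners of a continuous zcrest 2 region, and 46 zcrest 2 regions were so in turn. Continuous regions in such chains had median widths of 568 bp in zcrest 1 and 577.5 bp in zcrest 2, and medians of 22.5 and 24 reads. Their scaled read ratio over the strongest partner had a median of 0.852 and 0.81, below the medians of 1.13 and 1.18 of all continuous regions. In a chain, linked continuous regions of the 2 lines are partners of each other. A high ratio in one therefore holds the ratio of the other low, so the lower medians follow in part from the definition. In these places each line had its gap at another position. The longest gaps of chains had a median of 151 bp in zcrest 2 and 150.5 bp in zcrest 1.

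The share of summits at the lowest background of the list was smaller among continuous regions than among one-to-one pairs: 41 of 641 in zcrest 1 (6.40%), where 18.3% of the pairs did, and 41 of 796 in zcrest 2 (5.15%), where 19.1% of the pairs did. Continuous regions were also wider than the pairs, and the part of width in this difference was not tested.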
